A study of Mus musculus with 4 samples.

Results

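The secreted Wnt antagonists are extracellular proteins that keep Wnt ligands from signalling. The 9 examined here were the frizzled-related proteins Sfrp1, Sfrp2, Sfrp4, Sfrp5 and Frzb, the dickkopf proteins Dkk1, Dkk2 and Dkk3, and Wnt inhibitory factor 1 (Wif1). They were chosen by gene symbol, and each was represented by 1 probe, giving 9 of the 55681 probes on the array. Their RNA was measured in adipocyte progenitors (cells that give rise to fat cells), which were sorted from subcutaneous fat by flow cytometry and lysed without culture. The mice were male, of strain FVB and 4 weeks old, and formed 2 groups. The transgenic group carried an Adamts1 transgene (2 samples) and the wild-type group did not (2 samples), and each sample was hybridised to 1 single-colour Agilent array. Which promoter drives the transgene and which cells express it is not in the labels, and they do not say whether the samples came from separate animals or pools. The p-values therefore measure the spread between these samples, which may be technical.

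Wnt ligands bind a frizzled receptor together with the co-receptor Lrp5 or Lrp6 and stabilise beta-catenin, which switches on target genes with the factors of the TCF/LEF family. Frizzled-related proteins carry a cysteine-rich domain like that of the receptor and bind Wnt ligands outside the cell, as does Wif1 through a domain of its own, whereas Dkk1 and Dkk2 bind Lrp5 and Lrp6. In fat, canonical Wnt signalling is known to hold back the differentiation of progenitors into adipocytes.

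Of the 9 antagonists, 5 were measured well above background on all 4 arrays (Sfrp1, Sfrp2, Sfrp4, Dkk2 and Dkk3) and 4 on none (Sfrp5, Frzb, Dkk1 and Wif1). Sfrp2 and Sfrp4 were lower in the transgenic samples, by 1.59-fold and 1.79-fold. Dkk2 was 2.11-fold and Sfrp1 1.39-fold lower in the mean and Dkk3 was 1.20-fold higher, but these 3 differences did not pass the adjusted threshold. The comparison asks which of these inhibitors differ between transgenic and wild-type progenitors.

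Promoter sequence is shown for 3 of the genes. Sfrp2 is the one of the 2 called antagonists with an entry in the RefSeq promoter table, Dkk2 had the largest difference, and Dkk1, a known target of Wnt signalling itself, was not above background. Each line gives the 250 bases before the annotated start, 5′ to 3′ on the gene's strand, from RefSeq on build GRCm38.p6, and capitals mark matches to the motifs searched. The regions are chr3:83766071-83766320 on the plus strand for Sfrp2, chr3:132085042-132085291 on the plus strand for Dkk2 and chr19:30549497-30549746 on the minus strand for Dkk1.
Sfrp2: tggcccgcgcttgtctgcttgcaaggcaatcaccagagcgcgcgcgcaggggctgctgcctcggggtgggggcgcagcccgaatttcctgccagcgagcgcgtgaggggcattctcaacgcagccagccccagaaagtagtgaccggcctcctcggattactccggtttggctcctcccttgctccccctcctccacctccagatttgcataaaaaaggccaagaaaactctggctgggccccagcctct
Dkk2: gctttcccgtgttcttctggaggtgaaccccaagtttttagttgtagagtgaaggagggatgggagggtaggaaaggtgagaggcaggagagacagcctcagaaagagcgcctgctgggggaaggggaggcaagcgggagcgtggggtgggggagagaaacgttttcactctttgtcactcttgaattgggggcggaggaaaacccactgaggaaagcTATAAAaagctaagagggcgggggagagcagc
Dkk1: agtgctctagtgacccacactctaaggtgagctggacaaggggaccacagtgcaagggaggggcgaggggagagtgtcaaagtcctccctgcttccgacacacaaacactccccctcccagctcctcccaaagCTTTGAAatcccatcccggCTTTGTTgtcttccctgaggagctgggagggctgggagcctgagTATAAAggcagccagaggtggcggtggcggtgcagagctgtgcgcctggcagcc
The motifs were the TCF/LEF core, searched as CTTTGAA, as CTTTGAT, as CTTTGTA and as CTTTGTT, and the TATA box, searched as TATAAA, each on both strands, and no letters of one match overlapped another. Of the 9 antagonists 6 had a promoter in the table. The upstream window of Dkk1 held 2 TCF/LEF cores, at bases -117 to -111 and -98 to -92 from the start, and a TATAAA at -54 to -49. A TATAAA stood at -32 to -27 in Dkk2 and, on the other strand, at -232 to -227 in Wif1. None of these letters occurred in the window of Sfrp2, Sfrp5 or Frzb. GC content was 63.6%, 59.6% and 64.4% in the windows of Sfrp2, Sfrp5 and Frzb. It was 60.8%, 55.6% and 62.8% in those of Dkk1, Dkk2 and Wif1, so all 6 lay above the median of 52.4% over the table. Over the 32851 promoters of the table, 14.84% held a TCF/LEF core in the same window, 1.428% held at least 2 and 12.37% held TATAAA. A match describes the letters alone, and binding was not measured.

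The arrays were alike in kind but not in brightness. The 75th percentile of the processed signal was 354 and 350 on the transgenic arrays, against 239 and 333 on the wild-type arrays, and wild-type array 1 also had the fewest spots well above background (47.0%, against 55.5% to 57.0% on the other 3). Values below are log2 processed signals less each array's own 75th percentile, called the normalised log2 signal, so 1 unit is a doubling. Precision is limited by there being 2 arrays a group, for which the smallest two-sided p of an exact permutation test is 0.333. Adjusted p-values come from limma over all 24518 features, a feature being a gene or an unnamed probe. Of these, 423 passed an adjusted p of 0.05, which is 1.73% of features, with 0.967% called higher and 0.759% called lower in the transgenic samples. The Adamts1 probe showed no detected difference, with normalised log2 signals of 6.77 and 6.82 in the transgenic samples and 6.65 and 6.73 in the wild-type samples (difference 0.11 ± 0.09 SE, adjusted p = 0.573), and it checks the transgene only if the transgene carries that stretch of the gene.

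Sfrp2, a frizzled-related protein secreted by fibroblasts and fat progenitors, had spots 618 to 892 times as bright as their local background. Its normalised log2 signal was 5.81 and 5.69 in the transgenic samples, against 6.47 and 6.38 in the wild-type samples. Both transgenic arrays lay below both wild-type arrays, with 0.56 between the nearest arrays, against 0.13 between the transgenic and 0.10 between the wild-type arrays. The means were 5.75 ± 0.09 and 6.42 ± 0.07 (SD, n = 2 each), and the difference of -0.67 ± 0.10 SE passed the limma test (adjusted p = 0.0477). The 95% interval ran from -0.92 to -0.43, that is, transgenic levels of 0.529 to 0.743 times the wild-type ones. The processed signals before scaling were 19912 and 18026 in the transgenic samples and 21232 and 27693 in the wild-type samples, so the groups stood apart without scaling too, although the nearest pair was then closer. The probe lay at chr3:83577864-83577923 on the plus strand of mm9, and exon annotation of that build was not used here.

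Sfrp4, a second frizzled-related protein and one described as an adipokine, had normalised log2 signals of 5.50 and 5.74 in the transgenic samples, against 6.52 and 6.40 in the wild-type samples. Again neither transgenic array reached a wild-type one, and the gap between the nearest arrays was 0.66. The difference was -0.84 ± 0.12 SE (95% interval -1.14 to -0.55, adjusted p = 0.0454 in the limma fit), with means of 5.62 ± 0.17 and 6.46 ± 0.08 (SD, n = 2 each). Its processed signals were 15960 and 18690 in the transgenic samples and 21956 and 28183 in the wild-type samples. Its spots were 541 to 959 times as bright as their local background. The probe lay at chr13:19724488-19724547 on the plus strand of mm9. Neither this probe nor that of Sfrp2 was saturated on any array.

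Both calls lay close to the threshold and were lost when either transgenic array was left out. Without transgenic array 1 the difference was -0.74 (adjusted p = 0.189) for Sfrp2 and -0.72 (adjusted p = 0.204) for Sfrp4, and without transgenic array 2 it was -0.61 (adjusted p = 0.280) and -0.97 (adjusted p = 0.0954). Without wild-type array 1 Sfrp2 was still called (-0.63, adjusted p = 0.0421), whereas Sfrp4 was not (-0.78, adjusted p = 0.0530). Without wild-type array 2 both were called. When the variance was fitted without a trend on intensity, neither was called (adjusted p = 0.144 for Sfrp2 and 0.136 for Sfrp4). The size of the difference ran from -0.71 to -0.56 for Sfrp2 and from -0.88 to -0.73 for Sfrp4 over the 12 alternatives that used every array. Of these, only the ones that changed the scaling, normalization, background correction or source of the values could move it.

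**Figure D1:**
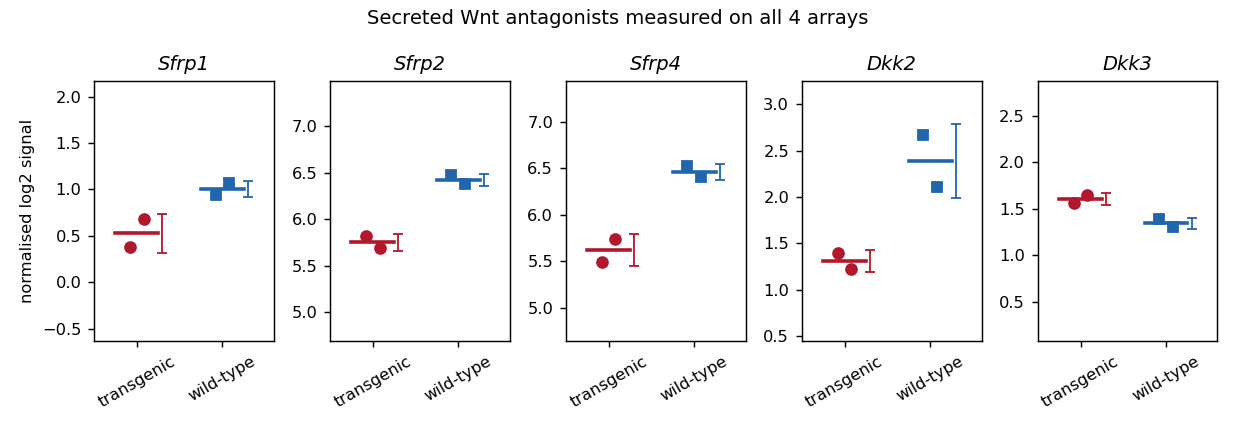
Normalised log2 signal (vertical axis, each panel spanning the same range of log2 units) of the 5 antagonists measured on all arrays, with transgenic samples as circles on the left and wild-type samples as squares on the right of each panel. Horizontal lines are group means and bars the SD (n = 2 each). Transgenic points lie below wild-type points for Sfrp1, Sfrp2, Sfrp4 and Dkk2 and above them for Dkk3.

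Sfrp1, the third frizzled-related protein detected, had spots 16.1 to 23.5 times as bright as their local background. Its normalised log2 signal was 0.38 and 0.68 in the transgenic samples and 0.94 and 1.07 in the wild-type samples. The groups did not overlap, but the transgenic arrays differed by 0.30 from each other and the gap between the groups was 0.27. The difference of -0.48 ± 0.14 SE did not pass (95% interval -0.83 to -0.12, adjusted p = 0.171 in the limma fit). Before scaling the groups overlapped, with processed signals of 461 and 560 in the transgenic samples and 461 and 698 in the wild-type samples. The probe lay at chr8:24559438-24559497 on the plus strand of mm9.

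Dkk2, which binds the Wnt co-receptors and can inhibit or activate the pathway depending on the cell, had the largest difference of the 5. Its normalised log2 signal was 1.39 and 1.23 in the transgenic samples, against 2.67 and 2.11 in the wild-type samples. The transgenic arrays were both lower, by 0.71 at the nearest, while the wild-type arrays differed by 0.56 from each other. The difference was -1.08 ± 0.20 SE (95% interval -1.58 to -0.57, adjusted p = 0.0750 in the limma fit), with means of 1.31 ± 0.12 and 2.39 ± 0.40 (SD, n = 2 each). Leaving out wild-type array 1 gave -0.80 (adjusted p = 0.0455) and leaving out wild-type array 2 gave -1.36 (adjusted p = 0.00849), both past the threshold. Leaving out transgenic array 1 gave -1.16 (adjusted p = 0.126) and transgenic array 2 gave -0.99 (adjusted p = 0.161), and neither passed. The processed signals were 929 and 820 in the transgenic samples and 1518 and 1436 in the wild-type samples, so the wild-type arrays were closer to each other before scaling. The probe lay at chr3:131842357-131842416 on the plus strand of mm9, on the chromosome that also carries Sfrp2.

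Dkk3, a divergent dickkopf protein that is not known to block the co-receptors as Dkk1 does, ran the other way. It had normalised log2 signals of 1.56 and 1.65 in the transgenic samples and 1.39 and 1.30 in the wild-type samples. The groups were apart by 0.17, and the difference of 0.26 ± 0.10 SE (95% interval 0.01 to 0.51, adjusted p = 0.250 in the limma fit) did not pass. The processed signals were 1043 and 1102 in the transgenic samples and 626 and 824 in the wild-type samples. The probe lay at chr7:119259556-119259615 on the minus strand of mm9.

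Because all 5 share the scaling of their array, ratios between antagonists within an array, which no scaling can change, were also formed. The log2 ratio of Sfrp2 to Dkk3 was 4.26 and 4.03 in the transgenic samples and 5.08 and 5.07 in the wild-type samples, a difference of -0.93. For Sfrp4 to Dkk3 the difference was -1.10 and for Sfrp1 to Dkk3 -0.74. The ratio of Dkk2 to Dkk3 was -0.17 and -0.43 in the transgenic samples, against 1.28 and 0.80 in the wild-type samples, a difference of -1.34. Dkk3 was taken because it ran the other way, so the groups had to stand apart in each of these 4 ratios, and nothing is read from that. Set against Pdgfra, the receptor that marks fat progenitors, the ratio differed by -0.75 for Sfrp2, -0.92 for Sfrp4, -1.15 for Dkk2, -0.55 for Sfrp1 and 0.18 for Dkk3. Pdgfra itself had normalised log2 signals of 5.28 and 5.42 in the transgenic samples and 5.23 and 5.32 in the wild-type samples, and its groups overlapped (difference 0.08 ± 0.09 SE, adjusted p = 0.702 in the limma fit). These ratios were chosen after the values were seen and are given without a test.

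Over the 5 tested antagonists 2 were called lower and none higher, with 4 lower and 1 higher at an unadjusted p under 0.05 in the limma fit, a level that 19% of all features reached. The median difference was -0.67, against -0.016 over all features, whose quartiles were -0.21 and 0.22. The groups did not overlap for any of the 5, but that was so for 53.1% of all features, with 28.6% lower and 24.5% higher in the transgenic samples, so the separation alone says little. Of all features 4.65% had a lower difference than Sfrp2, 2.94% than Sfrp4 and 1.63% than Dkk2. All 5 passed the filter on signal in both groups.

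**Figure D2:**
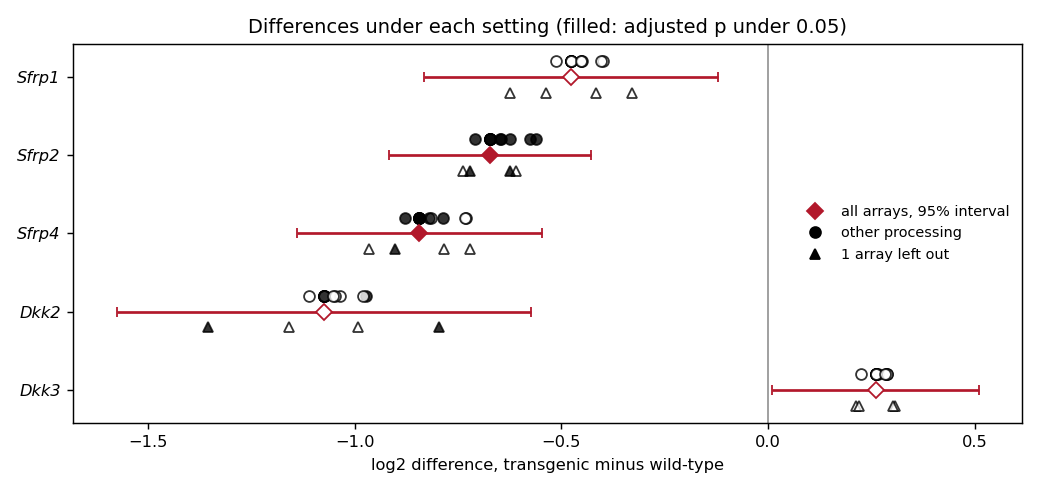
Log2 difference (horizontal axis, transgenic minus wild-type) of the 5 tested antagonists with all arrays (diamonds, with 95% intervals), under 12 other processing settings with every array (circles) and with 1 array left out (triangles), filled where the adjusted p was under 0.05. None of the points crosses 0, and for Sfrp2 and Sfrp4 filled and open points lie side by side.

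The other 4 antagonists were not well above background on any array, and no difference is given for them. They are Sfrp5, known as an adipokine of fat tissue, Frzb, Dkk1 and Wif1. The spots of Sfrp5 had mean raw intensities of 30.1 to 37.3 on a local background of 31 to 34. For Frzb they were 25.6 to 29.1, for Dkk1 26.8 to 35.3 and for Wif1 24.5 to 26.6, on backgrounds of 31 to 36. The ratio of spot to background stayed between 0.973 and 1.12 for Sfrp5, between 0.752 and 0.868 for Frzb, between 0.836 and 1.07 for Dkk1 and between 0.731 and 0.830 for Wif1. A transcript at that level was not detectable with these probes, which does not show that it is absent. The probes lay at chr19:42272509-42272568 for Sfrp5, chr2:80252582-80252641 for Frzb and chr19:30621424-30621483 for Dkk1, all on the minus strand, and at chr10:120537079-120537138 on the plus strand for Wif1, on mm9.

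**Figure D3:**
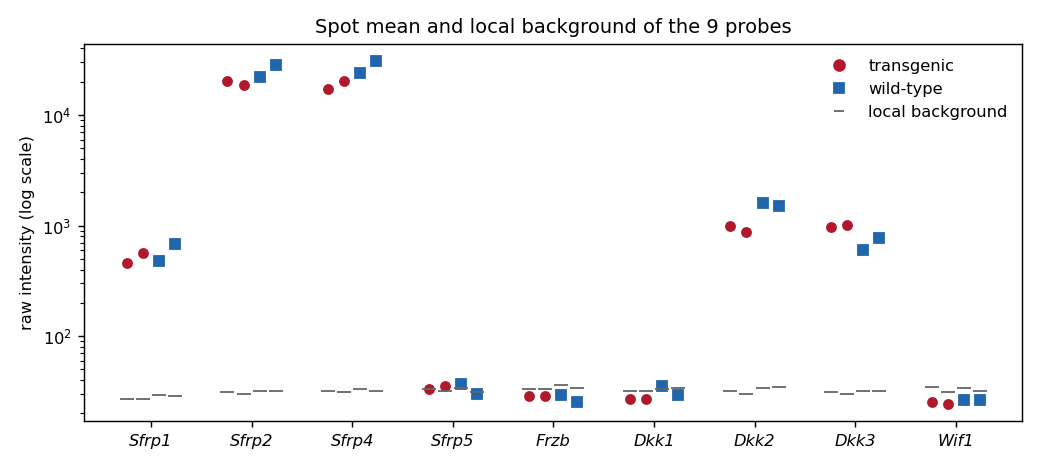
Raw mean intensity of the spot (log scale) for each of the 9 antagonist probes on each array, with transgenic arrays as circles and wild-type arrays as squares, and the local background as short grey lines. Sfrp1, Sfrp2, Sfrp4, Dkk2 and Dkk3 stand clear of the background, while Sfrp5, Frzb, Dkk1 and Wif1 lie at or below it or within a factor of 1.12 above it.

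Inhibitors of the pathway outside the 9 were looked at in the same fit. Of 12 such genes on the array 7 were tested, with 1 called higher and 0 lower, and 3 higher and 1 lower at an unadjusted p under 0.05. The call was Trabd2b, a membrane protease that cleaves and inactivates Wnt ligands, which had normalised log2 signals of 0.81 and 0.75 in the transgenic samples, against -1.76 and -1.33 in the wild-type samples (difference 2.32 ± 0.18 SE, adjusted p = 0.0195). It thus ran opposite to Sfrp2 and Sfrp4. The secreted Wnt deacylase Notum had a difference of 0.26 (adjusted p = 0.183) and Znrf3, a ubiquitin ligase that removes frizzled receptors, of 0.66 (adjusted p = 0.166), and neither passed. Sost, Sostdc1 and Draxin, other secreted inhibitors, were above background on no array.

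Among the ligands, receptors and carriers around the antagonists, all 5 genes called were lower in the transgenic samples. Of 9 Wnt ligands tested 3 were called lower, Wnt9a (-1.12 ± 0.10 SE), Wnt10b (-1.14 ± 0.13) and Wnt2 (-0.95 ± 0.14, adjusted p = 0.0499), and 0 higher, with 6 lower and 0 higher at an unadjusted p under 0.05. Without transgenic array 1 or 2 none of the 3 was called (adjusted p = 0.0748 and 0.0524 for Wnt9a, 0.0849 and 0.0513 for Wnt10b, 0.167 and 0.172 for Wnt2), and Wnt2 also lost its call under a median shift (adjusted p = 0.0742) and quantile normalization (adjusted p = 0.0657), among others. Wnt5b at -1.18 (adjusted p = 0.0541) and Wnt11 at -0.57 (adjusted p = 0.0754) did not pass. Of 5 tested R-spondins and R-spondin receptors, which strengthen Wnt signals, Rspo1 was called lower (-1.46 ± 0.10, adjusted p = 0.0162), while the receptor Lgr5 at -0.83 (adjusted p = 0.166) and Rspo2 at -0.85 (adjusted p = 0.218) did not pass. Of 16 receptors and co-receptors limma called 0, with 3 higher and 4 lower at an unadjusted p under 0.05. Among them, the frizzled receptor Fzd10 had a difference of -0.62 (adjusted p = 0.0591), the dickkopf receptor Kremen1 of -0.44 (adjusted p = 0.0780), Lrp5 of 0.26 (adjusted p = 0.231) and Lrp6 of -0.08 (adjusted p = 0.646). Of 12 genes for Wnt secretion and for the heparan sulfate proteoglycans that carry Wnt and frizzled-related proteins, 1 was called lower, the extracellular sulfatase Sulf1 (-0.77 ± 0.10, adjusted p = 0.0384), and 0 higher. Sulf1 was not called without transgenic array 1 or 2 (adjusted p = 0.150 and 0.133), whereas Rspo1 and Trabd2b were called whichever array was left out.

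Of 19 tested genes of the beta-catenin relay limma called 0, with 2 higher and 3 lower at an unadjusted p under 0.05, and the median was -0.11. The co-repressors Tle1 and Tle3 had differences of -0.57 (adjusted p = 0.0729) and -0.54 (adjusted p = 0.0748). Of 15 tested Wnt target genes 1 was called higher and 1 lower, with 5 higher and 4 lower at an unadjusted p under 0.05. They were the matricellular protein genes Ccn4 at 1.13 ± 0.16 SE (adjusted p = 0.0477) and Ccn5 at -1.09 ± 0.15 (adjusted p = 0.0449) in the limma fit. Ccn4 had a mean normalised log2 signal of -0.95 in the transgenic and -2.08 in the wild-type samples, and Ccn5 had 2.16 and 2.11 in the transgenic samples, against 3.43 and 3.02 in the wild-type samples. Neither was called without transgenic array 1 or 2 (adjusted p = 0.243 and 0.185 for Ccn4, 0.0948 and 0.0951 for Ccn5). Ccn4 also lost its call under a median shift (adjusted p = 0.0577), quantile normalization (0.0529), normexp (difference 0.65, adjusted p = 0.0718) and the mean over its probes (0.101), and Ccn5 under quantile normalization (0.0571). The cell cycle gene Ccnd1 had a difference of -0.49 (adjusted p = 0.103). The feedback inhibitor Axin2, a widely used readout of canonical Wnt signalling, was not well above background on both arrays of either group and was not tested.

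**Figure D4:**
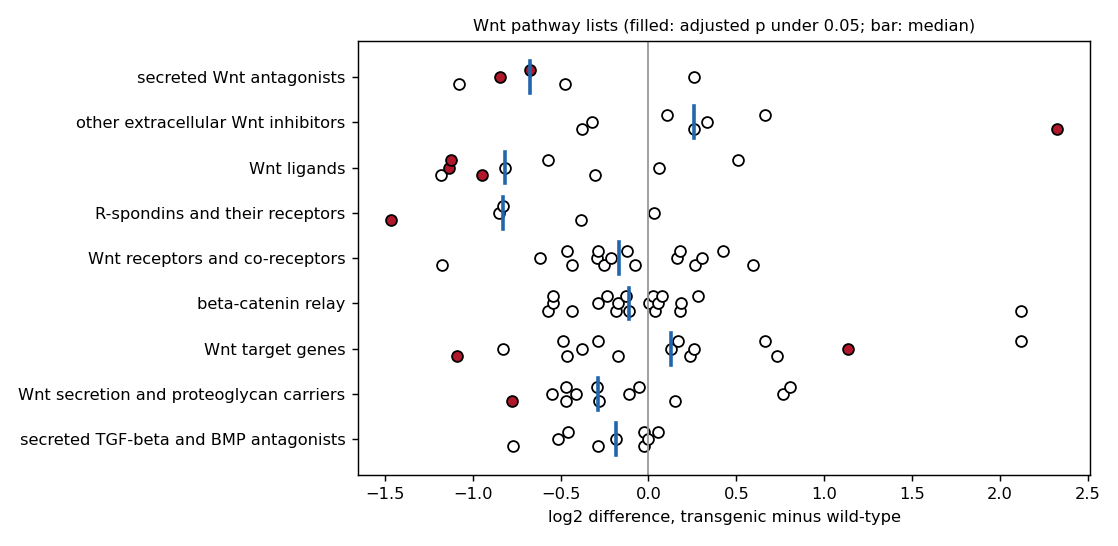
Log2 difference (horizontal axis, transgenic minus wild-type) of every tested gene in the antagonist list and in 8 other lists, one list per row, filled where the adjusted p was under 0.05, with the list's median as a vertical bar. The called genes are Sfrp2 and Sfrp4 among the antagonists, and Trabd2b, Wnt9a, Wnt10b, Wnt2, Rspo1, Ccn4, Ccn5 and Sulf1 elsewhere.

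Markers of other cells were read in the same comparison. These are sorted cells measured in bulk, so fewer cells of a type and less RNA per cell cannot be told apart. Of 8 tested mature adipocyte markers 2 were called higher and 0 lower, led by Fabp4 at 2.24, and their summed level (the log2 of the sum of their normalised signals) was 8.96 and 8.99 in the transgenic samples, against 8.19 and 8.17 in the wild-type samples. That sum was carried mostly by Lpl, at 8.63 and 8.64 in the transgenic samples and 8.07 and 8.03 in the wild-type samples. The median difference of the 8 was 1.74. The adipocyte marker Lep was above background on no array. Of 14 macrophage and leukocyte markers 9 were called higher and 0 lower. Their summed levels were 6.03 and 5.98 in the transgenic samples and 5.85 and 5.82 in the wild-type samples. Lyz2 and Adgre1 were above background on neither wild-type array, whereas others of the list, such as Csf1r and Itgam, were above it on both. The filter was passed through the transgenic arrays alone by 6 of these macrophage and leukocyte markers and by 4 of the endothelial ones. The median difference of the macrophage and leukocyte markers was 2.07, while their summed level was carried by Itgam, at 5.56 and 5.47 in the transgenic samples and 5.56 and 5.60 in the wild-type samples. The largest called differences in 3 other lists were 2.74 for the endothelial gene Ptprb, 2.62 for the smooth muscle gene Acta2 among those measured in both groups, and 3.31 for the Schwann cell gene Ngfr. Of 12 endothelial markers 2 were called higher and 0 lower. Their summed levels were 4.63 and 4.64 in the transgenic samples and 4.88 and 4.64 in the wild-type samples. Their median difference was 1.34, with 7 higher and 1 lower at an unadjusted p under 0.05 in the limma fit. The sum was carried mostly by the 3 that ran lower, Kdr at -0.28, Tek at -0.51 and Eng at -0.37, none of them called. Smooth muscle and pericyte markers were called higher for 3 and lower for 1 of 10, the lower one being Kcnj8 at -1.38. Their summed levels were 4.45 and 4.47 in the transgenic samples and 4.10 and 4.11 in the wild-type samples. Of 6 Schwann cell markers 1 was called higher and 1 lower, the lower one being Mbp at -0.63, and the differences were positive for 3 and negative for 3. Their summed levels were 5.74 and 5.73 in the transgenic and 6.25 and 5.95 in the wild-type samples. That sum was carried mostly by Pmp22, at 5.39 and 5.33 in the transgenic samples and 6.07 and 5.74 in the wild-type samples. Of 12 markers of the progenitors themselves 2 were called lower, Cd24a at -1.58 and Pi16 at -1.16, and 0 higher, with summed levels of 11.83 and 11.80 in the transgenic samples and 12.35 and 12.05 in the wild-type samples. The part of any of these markers in the antagonists' differences was not tested.

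The genes whose 4 array values ran closest to each antagonist, after each gene's own mean was subtracted, were found among 12376 genes with a proper symbol above background on all arrays. By Euclidean distance over the 4 arrays, in log2 units, they were Krt36 for Sfrp2 (0.041), Faap24 for Sfrp4 (0.084), Nipal3 for Dkk2 (0.075), Pik3c2a for Sfrp1 (0.053) and Top1 for Dkk3 (0.027). No antagonist had another of the 9 as its nearest gene. With 12376 candidates and 4 values per gene that outcome was likely in any case, and nothing is read from it.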

How the data were processed

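RNA of 2 transgenic and 2 wild-type samples was measured on single-colour Agilent mouse arrays with Cy3, per the labels. The processed intensity that the authors deposited came from Feature Extraction software, version 10.7.3.1, after background subtraction, per the file headers, as did the raw spot and background intensities used in the plot of spots and for normexp. The deposited series table holds log2 values, and no source used here says how they were made. Its columns correlated at 0.9988 to 0.9998 with the normalised values centred on each probe's median, with column medians of -0.045 and 0.019 in the transgenic and 0.193 and -0.021 in the wild-type samples.

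Flagged outlier spots were left out and a probe's spots averaged on the log2 scale. Each array's 75th percentile over non-control spots was subtracted. Probes were named through RefSeq accessions (26582 matched, 2892 of them under another symbol than the design's). Where a gene had several probes, the one with the highest mean stood for it, and it was tested if well above background on every array of 1 group or both. The test was limma's, version 3.58.1 under R 4.3.3, with an intensity trend, 2 residual and 3.34 prior degrees of freedom, two-sided, Benjamini-Hochberg adjusted over 24518 features. The fit was tested on simulated data. Of genes given a planted 1.5-fold change it called 0.4%, and of those given a 2-fold change 18.2%. The shares rose to 57% for a 4-fold and 81.4% for an 8-fold change. About 4 unchanged features were called in error in every simulated set. Changes as small as those of most antagonists would thus mostly be missed, so a gene that did not pass may still differ. All arrays were on 1 slide and 1 scan, so neither could be fitted as a block.

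The members and gene lists were chosen with earlier results of these data known. Named genes were the 9 antagonists with every probe, Adamts1, from the other pathway lists the called genes and the 2 uncalled ones with the smallest p, the called marker with the largest difference, and each detected antagonist's nearest gene by profile. Sost, Sostdc1, Draxin, Lrp5, Lrp6, Axin2, Pdgfra, Lep, Adgre1, Csf1r, Pi16, Acta2, Itgam, Kcnj8, Lpl, Kdr, Tek, Eng, Mbp and Pmp22 were named in addition, after their values were seen. The alternatives tried are another array scaling, normalization, background correction, filter, probe rule, variance model, replicate block and leaving out each array. Proteins were not printed.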

Additional observations from a re-analysis of the deposited data

How the results depend on the processing

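The direction of all 5 tested antagonists was kept in each of the 12 alternatives with every array and in the 4 that left out 1 array. So was that of 25 other genes wherever they were tested, Adamts1 and the genes named by rule from the pathway lists. Of these, Lef1 was not tested in the alternative that required signal well above background on all 4 arrays. For the antagonists much of the agreement in direction was fixed in advance. The filters, the fit without a trend, the mean over probes, the kept outlier spots and the block left their differences unchanged. Leaving out 1 array cannot reverse a direction where the groups do not overlap. Only another scaling, normalization, background correction or the deposited series table could have changed a direction. Markers, genes near by profile and the genes named in addition were not run under the alternatives. Whether Sfrp2 and Sfrp4 passed depended on the setting: of the 12 alternatives 10 called Sfrp2 (adjusted p 0.0255 to 0.144 over all 12), 8 called Sfrp4 (0.0175 to 0.136) and 3 called Dkk2 (0.0169 to 0.178), and none called Sfrp1 (0.124 to 0.273) or Dkk3 (0.212 to 0.430). The number of antagonists called lower was 2 with all arrays. It was 1 with quantile normalization, 1 with normexp and quantile normalization, 1 with the deposited series table and 1 with the mean over a gene's probes, all with 4 at an unadjusted p under 0.05. It was 0 without an intensity trend (4 at an unadjusted p under 0.05), and 0 to 3 when 1 array was left out. The count over all features was 423. It was 695 with no filter, where 47818 features were tested, and 0 with no intensity trend, where 4124 had an unadjusted p under 0.05 in limma. With the replicate number as a block it was 774, with 3 antagonists called, Dkk2 among them (adjusted p = 0.0169). The block rests on a shared number alone, since the deviations of same-numbered arrays from their group means correlated at 0.0032 over features. Leaving out 1 array gave 90 to 3998 features; the spread then comes from the intact pair, and the lone sample is assumed to vary like it. Leaving out transgenic array 1 gave 90 and transgenic array 2 gave 114, wild-type array 1 gave 1289 and wild-type array 2 gave 3998. Scaling by the percentile over probes gave 456 features and 2 antagonists, Sfrp2 and Sfrp4. It is 1 of the 12 alternatives but was added after the data were seen, and the counts of alternatives that called Sfrp2 and Sfrp4 include it. The cause of these shifts was not tested. Of the 8 other called pathway genes 5 (Trabd2b, Wnt9a, Wnt10b, Rspo1 and Sulf1) kept their call in every alternative with all arrays except that without a trend, and Wnt2, Ccn4 and Ccn5 did not. Signal over background, not a count, limits what was measured, and 4 antagonists fell under that limit.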

Other observations

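Secreted antagonists of a neighbouring pathway, those of TGF-beta and BMP ligands, gave 9 tested genes of which limma called 0, with 0 higher and 3 lower at an unadjusted p under 0.05 and a median log2 difference of -0.19. The BMP antagonist Nbl1 had normalised log2 signals of 5.98 and 5.99 in the transgenic samples, against 6.90 and 6.62 in the wild-type samples (difference -0.77 ± 0.12 SE, adjusted p = 0.0549). Twsg1, a BMP-binding protein, had 3.13 and 3.05 in the transgenic samples and 3.61 and 3.61 in the wild-type samples (difference -0.52 ± 0.08, adjusted p = 0.0572). The transgenic and wild-type arrays stood apart for these 2 genes, as they did for 53.1% of all features.

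Among the carriers of Wnt proteins the cell-surface proteoglycans Sdc1 and Gpc1 ran higher, at 0.77 ± 0.12 SE (adjusted p = 0.0512) and 0.81 ± 0.14 (adjusted p = 0.0644), and did not pass. The factor Lef1, which partners beta-catenin, had -2.94 and -2.77 in the transgenic samples and -5.61 and -4.34 in the wild-type samples (difference 2.12 ± 0.48, adjusted p = 0.109), and was well above background on 1 of the 2 wild-type arrays. Its difference was 0.34 with normexp and 0.55 with normexp and quantile normalization.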
